A study of Mus musculus with 4 samples.

Results

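The genes described here encode the receptors for glutamate, GABA and glycine, and were taken by a rule on gene symbols. The rule took the ionotropic glutamate receptor genes (Gria, Grik, Grid and Grin), the metabotropic ones (Grm), the GABA-A subunits (Gabr), the GABA-B subunits (Gabbr) and the glycine receptor subunits (Glr). It names 52 genes in the mouse reference, 26 of them excitatory (glutamate receptors) and 26 inhibitory (GABA and glycine receptors). These labels follow the gene families and not the effect of each receptor. Metabotropic glutamate receptors that reduce transmitter release are thus counted as excitatory in all medians, counts and sums below. Of these, 45 had values at 1 or both time points, among 14718 gene symbols in all.
The study compared spinal cord injury in male targeted replacement mice that carry a human ApoE3 or ApoE4 sequence in place of the mouse Apoe gene, and asked how the ApoE variant bears on recovery. Mice aged 3 to 5 months received a contusion of 50 kdyne to the mid-thoracic cord, and RNA was sequenced from a segment of about 4 mm around the lesion at 7 or 21 dpi (days post injury). This gave 4 groups, ApoE3 and ApoE4 at 7 dpi and ApoE3 and ApoE4 at 21 dpi, with 3 mice in each by the study's methods, and no uninjured group was analysed here. The values used here are 1 FPKM (fragments normalized to transcript length and sequencing depth) for each gene and group.
With 1 value per group, no spread between mice could be computed, so no difference between genotypes has a replicate check and none was tested. The libraries were reduced to the same number of reads by the authors, but how many reads a gene received is unknown. In 1 replicate a smaller share of the reads aligned, and its group is not given in the text used here. Which value belongs to which genotype also rests on a reading. The comparison was named as ApoE3 versus ApoE4 and was read in that order, whereas the numbering of the sample columns has ApoE4 before ApoE3. Under the opposite reading, every direction between genotypes given below would be reversed.

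Glutamate drives fast excitation in the spinal cord through AMPA, kainate and NMDA receptors, which are cation channels, and tunes it through metabotropic receptors, which signal through G proteins. Inhibition is carried by GABA-A and glycine receptors, which are chloride channels built from pentamers of subunits, and by GABA-B receptors, which are coupled to G proteins. Glycine is a main inhibitory transmitter of the spinal cord and brainstem, where interneurons shape the output of motor neurons.

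At 7 dpi, 41 of the 52 receptor genes were listed, among 14125 genes. At 21 dpi, 32 were listed, among 11472 genes. Of the 45 genes, 28 were listed at both time points and 13 at 7 dpi only. Grin1, Grm2, Gabre and Gabrr2 were listed at 21 dpi only. The other 7, Grm6, Gabra6, Gabrd, Gabrp, Gabrr1, Gabrr3 and Glra4, were listed at neither. Genes without a listed value are not counted as absent, and medians and counts below cover the listed genes only.
Differences are given as log2((FPKM ApoE3 + 1)/(FPKM ApoE4 + 1)), so that a positive value is higher in ApoE3. The added 1 understates the difference of genes with low values. The median log2 ratio of all genes that averaged 1 FPKM or more was 0.0018 at 7 dpi, and at 21 dpi it was -0.42. The summed FPKM of all genes was 1.35 times higher in ApoE4 than in ApoE3 at 21 dpi, compared to 1.0001 times at 7 dpi. Values at 21 dpi are therefore also given relative to that median (relative to all genes, or centered). Levels at 7 and 21 dpi came from comparisons that were computed separately, so they are set side by side and the time points were not tested against each other.

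At 7 dpi, most receptor genes had a higher value in ApoE3. Of the 41 listed genes, 39 had a log2 ratio above 0, with a median of 0.18, while 50.5% of all listed genes were above 0. The exceptions were the NMDA receptor genes Grin2d, at -0.0090, and Grin3b, at -0.049. A difference of at least 1.3-fold in favor of ApoE3 was found for 6 receptor genes, or 14.6%, compared to 3.78% of all listed genes. In favor of ApoE4 it was found for 0 receptor genes, compared to 4.76% of all listed genes.
Among them were Gabrg3 (0.66), Glra1 (0.48), Gabbr2 (0.41), Grid1 (0.40) and Glra2 (0.38). Glra2, at 1.302-fold, was just inside the threshold. Markers of neurons had higher values in ApoE3 as well. All 14 listed genes of a list of 16 neuron markers had a ratio above 0, and their median was 0.25. After that median was subtracted, the median of the receptor genes was -0.074 and 1 of them, Gabrg3, was past 1.3-fold. Fewer neurons and less receptor RNA per neuron cannot be told apart in these segments, which mix all cells of the tissue.

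At 21 dpi, the direction was the opposite, and so it was for most genes. Of 32 listed receptor genes, 31 had a lower value in ApoE3, the median log2 ratio being -0.55, and Grid1, at 0.046, was the exception. Of all listed genes, 6.16% had a ratio above 0, so most genes shared this direction. A difference of at least 1.3-fold in favor of ApoE4 was found for 28 receptor genes, or 87.5%, compared to 58.9% of all listed genes. In favor of ApoE3 it was found for 0 receptor genes, compared to 2.02% of all listed genes.
After centering, the median of the receptor genes was -0.13, with 8 genes above and 24 below. On that scale 6 receptor genes, or 18.8%, were at least 1.3-fold higher in ApoE4, compared to 8.07% of all listed genes. Among these were Gabre (-0.59), Gabrr2 (-0.56), Glra1 (-0.48) and Grin2b (-0.43). In the other direction, Grid1 (0.47) and Grin1 (0.40) were past 1.3-fold, or 6.25% of the receptor genes, compared to 7.47% of all listed genes.

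**Figure D1:**
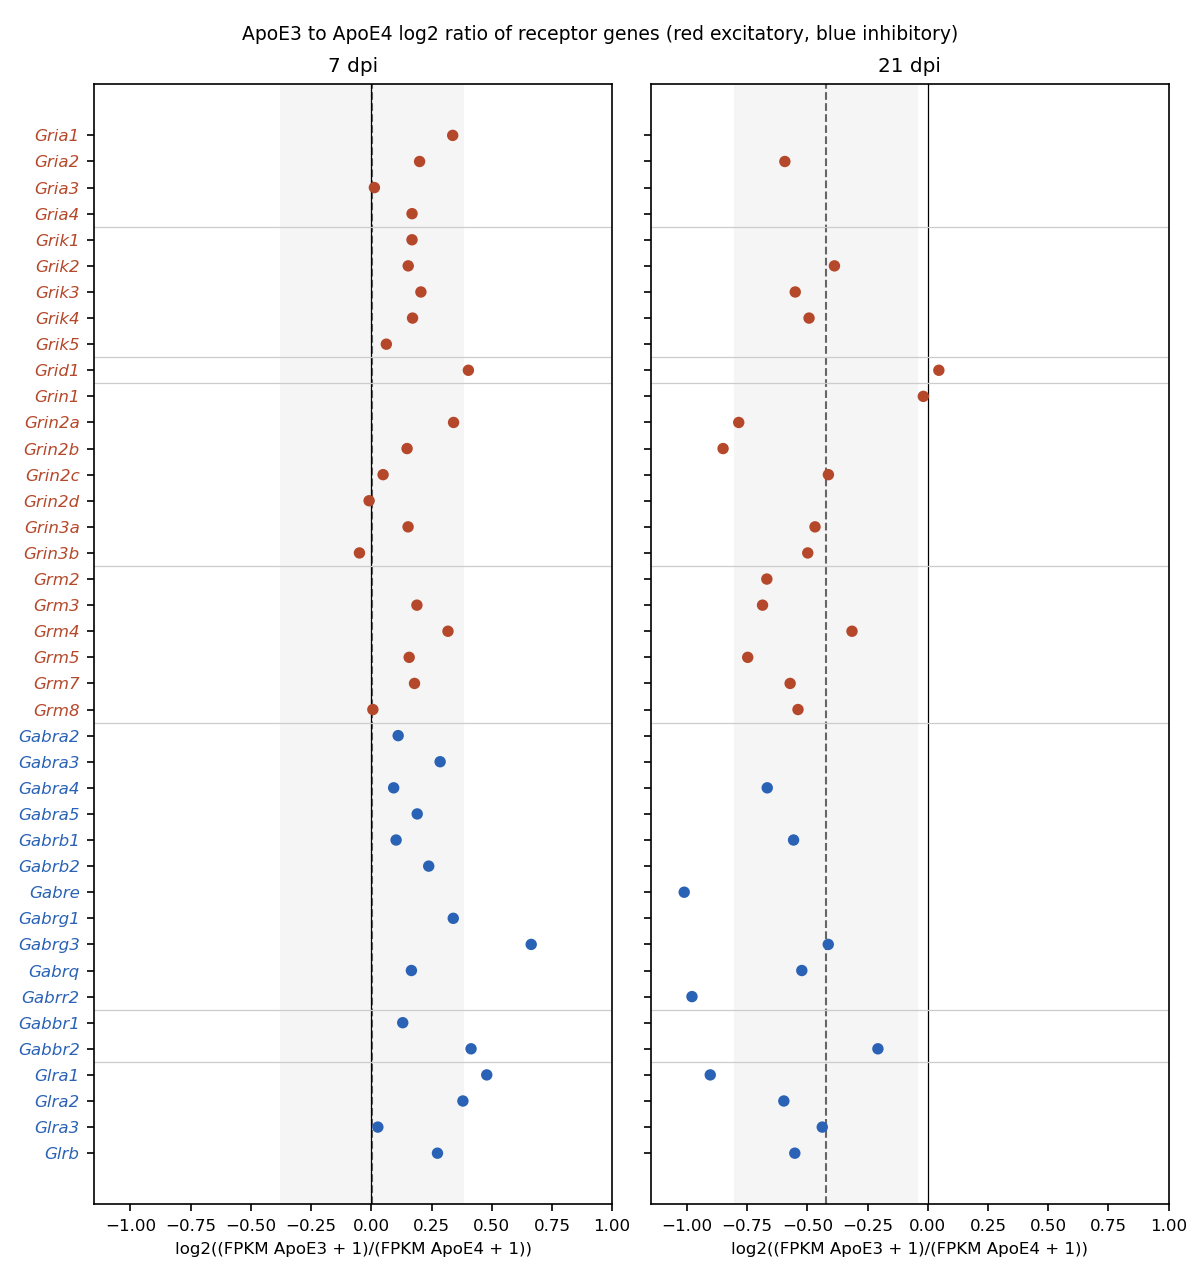
Log2 ratio of ApoE3 to ApoE4 (x axis, log2 of FPKM + 1) for the receptor genes reported here at 7 dpi (left) and 21 dpi (right), with 1 point per gene, excitatory in red and inhibitory in blue. The dashed line is the median of all genes that averaged 1 FPKM or more (0.0018 and -0.42), and the gray band spans 1.3-fold on each side of it. Most points lie to the right of the line at 7 dpi and to the left of it at 21 dpi.

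The start regions of these genes were examined because several of them moved in the same direction. Of the 11 receptor genes past 1.3-fold at 7 dpi or, relative to all genes, at 21 dpi, 6 had an entry among the RefSeq promoters. For 3 of them, Grin1, Gabrg3 and Glra2, the 250 bases before the annotated start share no run of 20 bases with an annotated transcript of the gene, and these are shown. Each is given 5' to 3' on the strand of the gene, with the build GRCm38.p6. Capitals mark matches, on both strands, to the GC box GGGCGG, which Sp1 binds, and to GGACAG, the last part of RE1, the element bound by REST, a repressor of neuronal genes. The first part of RE1, TTCAGCACC, was searched as well and had no exact match in these 3. Inexact matches were not searched for, and the stretch next to the marked CTGTCC of Glra2 comes close to this part on the other strand. The region of Grin1 is chr2:25319188-25319437 (- strand), that of Gabrg3 is chr7:57387216-57387465 (- strand) and that of Glra2 is chrX:165327394-165327643 (- strand).
Grin1: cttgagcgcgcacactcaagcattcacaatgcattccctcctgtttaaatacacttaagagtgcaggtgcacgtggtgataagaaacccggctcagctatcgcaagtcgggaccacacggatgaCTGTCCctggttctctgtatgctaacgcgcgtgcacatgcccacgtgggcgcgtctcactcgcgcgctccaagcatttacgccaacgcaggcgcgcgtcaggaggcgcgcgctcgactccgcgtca
Gabrg3: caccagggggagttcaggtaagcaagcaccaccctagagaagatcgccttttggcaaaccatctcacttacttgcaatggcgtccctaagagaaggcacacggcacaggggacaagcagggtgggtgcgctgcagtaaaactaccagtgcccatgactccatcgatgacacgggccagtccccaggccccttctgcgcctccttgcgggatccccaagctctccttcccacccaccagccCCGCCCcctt
Glra2: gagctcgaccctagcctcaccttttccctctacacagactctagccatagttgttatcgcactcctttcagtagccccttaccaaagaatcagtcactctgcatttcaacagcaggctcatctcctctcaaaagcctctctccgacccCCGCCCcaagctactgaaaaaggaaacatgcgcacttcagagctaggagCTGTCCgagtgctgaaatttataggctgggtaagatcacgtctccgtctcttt
Grin1 has 27 CpG dinucleotides in this window, Gabrg3 has 9 and Glra2 has 8. Over all receptor genes, 30 matched the promoters, with 37 entries among 32851 in all. A GC box was found in 54.1% of the receptor entries and in 32.7% of all entries of the same length. GGACAG was found in 43.2% of the receptor entries and in 18.7% of all. TTCAGCACC was found in the entry of Grm2 alone among the receptor genes, or 2.70%, compared to 0.301% of all. The receptor entries also had more G and C, with a median of 61.2% against 52.4%, and a median of 9 CpG dinucleotides against 6. Both short motifs are rich in G and C, and a match is not a bound site.

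AMPA receptors carry most of the fast excitatory current. Gria2, whose subunit makes the channel nearly impermeable to calcium, had the highest level of the family, with 631 FPKM in ApoE3 and 549 FPKM in ApoE4 at 7 dpi. At 21 dpi, where it was the only AMPA receptor gene listed, it had 501 FPKM in ApoE3 and 757 FPKM in ApoE4. Its share of the summed AMPA receptor FPKM at 7 dpi was 56.2% for ApoE3 and 55.8% for ApoE4, and so was nearly the same in both.
Gria4, a subunit of fast channels, had 303 FPKM in ApoE3 and 269.7 FPKM in ApoE4 at 7 dpi. Gria1, whose subunit is inserted at synapses during plasticity, had 111 and 87.7 FPKM. Gria3 had 78.4 and 77.7 FPKM. The order Gria2, Gria4, Gria1, Gria3 was the same in both genotypes. Their log2 ratios were 0.34 for Gria1, 0.20 for Gria2, 0.17 for Gria4 and 0.013 for Gria3. The median of the family was 0.18, and -0.069 after the median of the neuron list was subtracted. For Gria2, the ratio at 21 dpi was -0.59, or -0.17 relative to all genes.

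Kainate receptors act on both sides of the synapse. Grik5, a high-affinity subunit that needs a partner to form a channel, was the most abundant at 7 dpi, with 278 FPKM in ApoE3 and 266 FPKM in ApoE4, and was not listed at 21 dpi. Grik2, which forms channels by itself, had 122 and 109.5 FPKM at 7 dpi, and 114 and 149.7 FPKM at 21 dpi. Grik4, the other high-affinity subunit, had 99.6 and 88.3 FPKM at 7 dpi, and 118 and 167 FPKM at 21 dpi.
The other members had lower levels. Grik1 had 35.8 FPKM in ApoE3 and 31.8 FPKM in ApoE4 at 7 dpi, the only time point at which it was listed. Grik3 had 12.8 and 11.0 FPKM at 7 dpi, and 9.70 and 14.7 FPKM at 21 dpi. All 5 genes had a ratio above 0 at 7 dpi, from 0.062 for Grik5 to 0.21 for Grik3, and none was past 1.3-fold. The median was 0.17, and -0.085 relative to the neuron list. At 21 dpi, the 3 listed genes were past 1.3-fold higher in ApoE4, but relative to all genes they lay between -0.13 for Grik3 and 0.036 for Grik2.

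Delta receptors belong to the same family by sequence but act mainly as synapse organizers that bind cerebellins. Grid1 had 42.7 FPKM in ApoE3 and 32.0 FPKM in ApoE4 at 7 dpi, and 73.8 and 71.5 FPKM at 21 dpi. Its ratio was 0.40 at 7 dpi, where it was the only excitatory receptor gene past 1.3-fold. At 21 dpi it was 0.046, which is 0.47 relative to all genes, the highest of the 32 listed receptor genes.

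NMDA receptors need both glutamate and a co-agonist, and every one holds the subunit encoded by Grin1. Grin1 was listed at 21 dpi only, with 2249.8 FPKM in ApoE3 and 2279 FPKM in ApoE4. This was the highest level of any receptor gene, and made up 94.0% of the summed NMDA receptor FPKM in ApoE3 and 91.7% in ApoE4. Its ratio of -0.019 was close to 0 while most genes were lower in ApoE3, and was 0.40 relative to all genes.
The subunits that bind glutamate are encoded by the Grin2 genes. Grin2d, an early form of the subunit that persists in the spinal cord, had 46.9 FPKM in ApoE3 and 47.2 FPKM in ApoE4 at 7 dpi, the only time point at which it was listed. Grin2c had 42.8 and 41.4 FPKM at 7 dpi, and 89.2 and 119 FPKM at 21 dpi. Grin2b, whose subunit gives slow currents, had 13.5 and 12.1 FPKM at 7 dpi, and 13.1 and 24.4 FPKM at 21 dpi. Its ratio at 21 dpi was -0.85, or -0.43 relative to all genes, the lowest of the family. Grin2a, which gives faster currents, had 5.996 and 4.52 FPKM at 7 dpi, and 4.61 and 8.66 FPKM at 21 dpi. Its ratio was 0.34 at 7 dpi, the highest of the family, and -0.36 relative to all genes at 21 dpi.
The ratio of Grin2b to Grin2a levels, which is used to describe the maturity of the receptors, was 2.25 in ApoE3 and 2.67 in ApoE4 at 7 dpi. At 21 dpi it was 2.84 and 2.82. The Grin3 genes encode subunits that bind glycine and reduce the entry of calcium. Grin3a had 25.2 FPKM in ApoE3 and 22.6 FPKM in ApoE4 at 7 dpi, and 24.4 and 34.1 FPKM at 21 dpi. Grin3b, known from motor neurons, had 5.66 and 5.89 FPKM at 7 dpi, and 13.2 and 19.1 FPKM at 21 dpi. The NMDA receptor genes had the lowest family median at 7 dpi, at 0.099, or -0.15 relative to the neuron list. Their median at 21 dpi was -0.48, or -0.060 relative to all genes, with 2 genes above and 4 below.

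Metabotropic glutamate receptors fall into groups that differ in their coupling. Grm5, whose product raises calcium and excites the postsynaptic cell, had 32.6 FPKM in ApoE3 and 29.1 FPKM in ApoE4 at 7 dpi, and 22.1 and 37.8 FPKM at 21 dpi. It thus had a lower value in ApoE3 at 21 dpi.
Group III, which reduces transmitter release, held the most abundant members. Grm7, found in the active zone, had 96.7 FPKM in ApoE3 and 85.3 FPKM in ApoE4 at 7 dpi, and 82.6 and 123 FPKM at 21 dpi. Grm4 had 71.7 and 57.3 FPKM at 7 dpi, and 110.4 and 137.5 FPKM at 21 dpi. Its ratio was 0.32 at 7 dpi and -0.31 at 21 dpi, or 0.11 relative to all genes, and it was the only gene of the family above the median of all genes. Grm8 had 9.62 and 9.58 FPKM at 7 dpi, and 12.6 and 18.7 FPKM at 21 dpi.
Group II consists of Grm2 and Grm3, which lower cyclic AMP. Grm3, also made by astrocytes, had 6.002 FPKM in ApoE3 and 5.14 FPKM in ApoE4 at 7 dpi, and 4.69 and 8.15 FPKM at 21 dpi. Grm2 was listed at 21 dpi only, with 1.09 and 2.33 FPKM, the lowest level of any receptor gene there. All 6 listed genes of the family had a ratio above 0 at 7 dpi, with a median of 0.18, or -0.069 relative to the neuron list. The 7 genes listed at 21 dpi had a median of -0.67, or -0.24 relative to all genes.

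**Figure D2:**
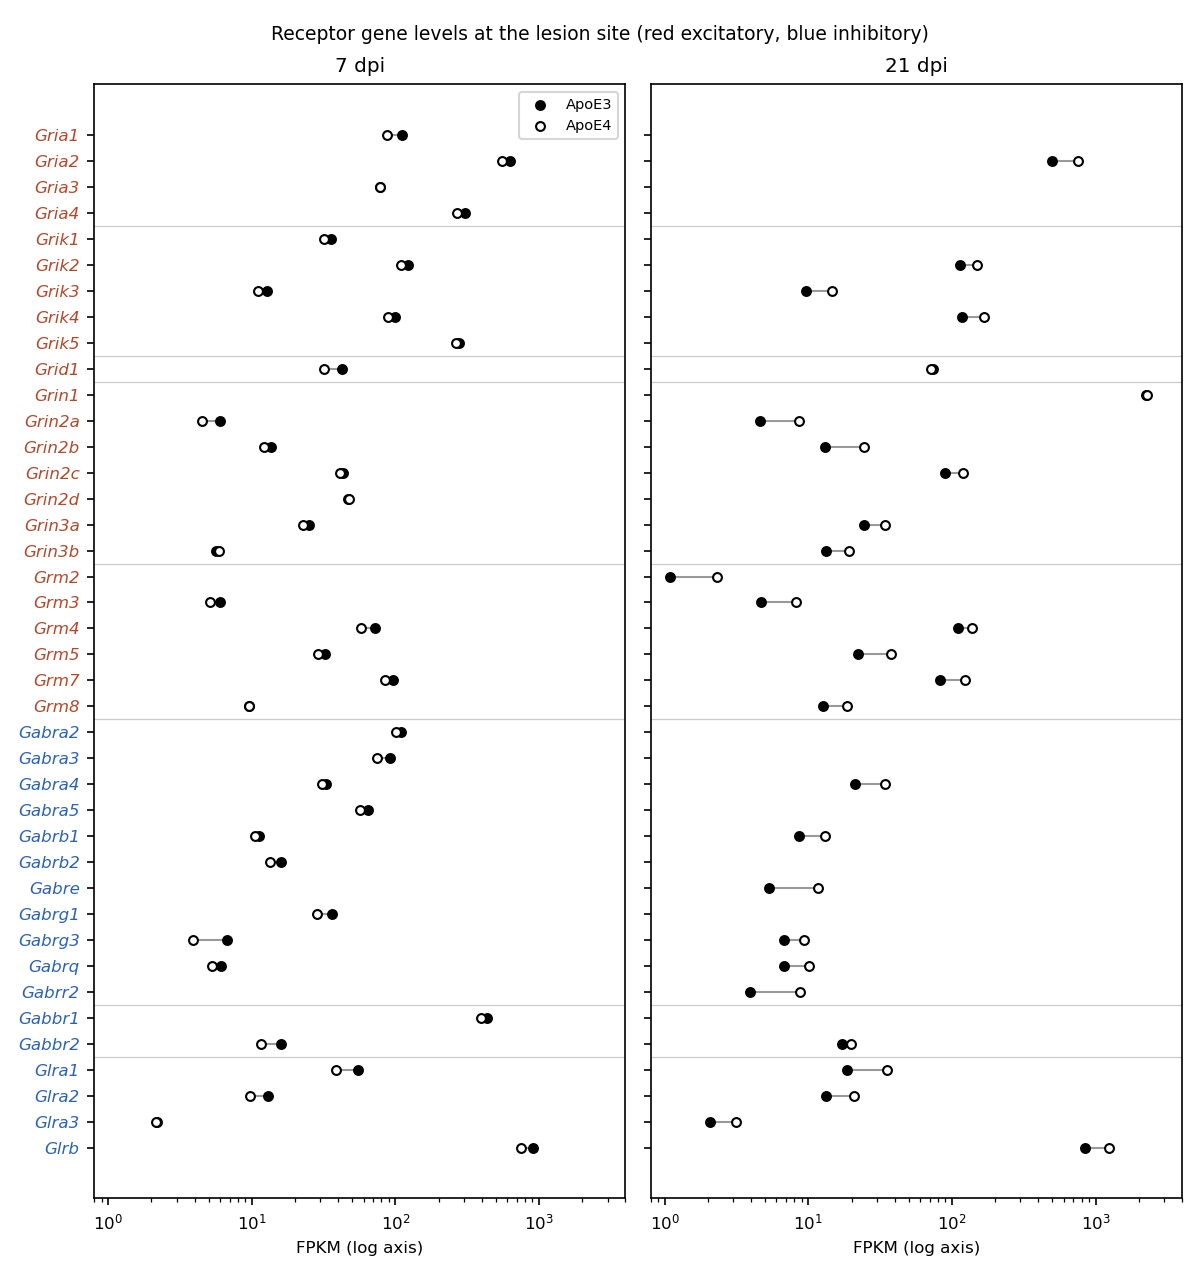
FPKM (x axis, log scale) of the receptor genes reported here in ApoE3 (filled) and ApoE4 (open) at 7 dpi (left) and 21 dpi (right), with 1 value per group and gene names in red for excitatory and in blue for inhibitory receptors. Glrb and Gria2 stand highest at 7 dpi, and Grin1, at 2249.8 and 2279 FPKM, at 21 dpi, while a gene without points was not listed at that time point.

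GABA-A receptors are assembled from alpha and beta subunits with, most often, a gamma subunit. Among the alpha subunit genes, which set the kinetics and drug sensitivity, Gabra2 had the highest level at 7 dpi, with 109.5 FPKM in ApoE3 and 101.3 FPKM in ApoE4. Gabra3 had 91.4 and 74.8 FPKM and Gabra5, whose subunit serves tonic inhibition, had 64.9 and 56.7 FPKM. These 3 genes were listed at 7 dpi only, with ratios of 0.11, 0.29 and 0.19. Gabra4 had 33.0 and 30.9 FPKM at 7 dpi, and 21.2 and 34.2 FPKM at 21 dpi.
The beta subunits complete the site for GABA. Gabrb2 had 16.1 FPKM in ApoE3 and 13.5 FPKM in ApoE4 at 7 dpi and was not listed at 21 dpi. Gabrb1 had 11.3 and 10.5 FPKM at 7 dpi, and 8.59 and 13.1 FPKM at 21 dpi. Their ratios at 7 dpi were 0.24 for Gabrb2 and 0.10 for Gabrb1.
The gamma subunits anchor receptors at synapses and form the site for benzodiazepines. Gabrg1 had 36.3 FPKM in ApoE3 and 28.5 FPKM in ApoE4 at 7 dpi, with a ratio of 0.34, and was not listed at 21 dpi. Gabrg3 had 6.77 and 3.91 FPKM at 7 dpi, and 6.77 and 9.35 FPKM at 21 dpi. Its ratio of 0.66 at 7 dpi was the highest of all 41 listed receptor genes, at a low level of expression. At 21 dpi its ratio was -0.41, or 0.010 relative to all genes.
The remaining subunits were scarce. Gabrq, the theta subunit gene, had 6.08 FPKM in ApoE3 and 5.31 FPKM in ApoE4 at 7 dpi, and 6.78 and 10.2 FPKM at 21 dpi. Gabre, the epsilon subunit gene, was listed at 21 dpi only, with 5.32 and 11.7 FPKM, and its ratio of -1.01, or -0.59 relative to all genes, was the lowest of all receptor genes. Gabrr2, a rho subunit gene best known from the retina, had 3.93 and 8.72 FPKM at 21 dpi, with a ratio of -0.98, or -0.56 relative to all genes. Neither Gabre nor Gabrr2 had a value at 7 dpi to compare with. All 12 listed GABA-A genes had a ratio above 0 at 7 dpi, with a median of 0.21, or -0.039 relative to the neuron list. The 8 genes listed at 21 dpi had a median of -0.64, or -0.22 relative to all genes.
Some receptor genes are neighbors on the chromosome. By the order of protein-coding genes in RefSeq, Gabra4 and Gabrb1 lie side by side, as do Gabrg1 and Gabra2. At 7 dpi Gabra4 and Gabrb1 had ratios of 0.093 and 0.10, and Gabrg1 and Gabra2 had 0.34 and 0.11. Gria2 and Glrb, the most abundant excitatory and inhibitory genes at 7 dpi, are neighbors as well, with ratios of 0.20 and 0.27 at 7 dpi and of -0.17 and -0.13 relative to all genes at 21 dpi.

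GABA-B receptors are obligate pairs of the products of Gabbr1 and Gabbr2. Gabbr1, which binds GABA, had 432 FPKM in ApoE3 and 395 FPKM in ApoE4 at 7 dpi and was not listed at 21 dpi. Gabbr2, which carries the receptor to the surface and couples it to G proteins, had 15.9 and 11.7 FPKM at 7 dpi, and 17.2 and 19.96 FPKM at 21 dpi. The level of Gabbr1 was thus far above that of its partner in both genotypes. Their ratios at 7 dpi were 0.13 and 0.41. Gabbr2 had a ratio of -0.21 at 21 dpi, or 0.22 relative to all genes, and was the only inhibitory receptor gene besides Gabrg3 above the median of all genes.

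Glycine receptors combine alpha subunits with the beta subunit encoded by Glrb, which binds gephyrin and so holds them at the synapse. Glrb had 905 FPKM in ApoE3 and 748 FPKM in ApoE4 at 7 dpi, and 848 and 1244 FPKM at 21 dpi. It was the most abundant inhibitory receptor gene in all 4 groups and made up 92.9%, 93.7%, 96.2% and 95.4% of the summed glycine receptor FPKM, in the order of the groups above. Its ratio was 0.27 at 7 dpi and -0.55 at 21 dpi, or -0.13 relative to all genes.
Glra1, the alpha subunit of adult spinal receptors, had 54.5 FPKM in ApoE3 and 38.8 FPKM in ApoE4 at 7 dpi, and 18.5 and 35.5 FPKM at 21 dpi. Its ratio was 0.48 at 7 dpi and -0.90 at 21 dpi, or -0.48 relative to all genes. Relative to all genes it was thus past 1.3-fold in opposite directions at both time points, but relative to the neuron list its ratio at 7 dpi was 0.23, which is within 1.3-fold. Glra2, the alpha subunit that prevails before birth, had 12.9 and 9.72 FPKM at 7 dpi, and 13.4 and 20.8 FPKM at 21 dpi. The ratio of Glra1 to Glra2 levels was 4.21 in ApoE3 and 3.99 in ApoE4 at 7 dpi, and 1.38 and 1.71 at 21 dpi. It was lower at 21 dpi in both genotypes, with Glra1 still above Glra2 in every group. Glra3, a subunit known from dorsal horn pain pathways, had 2.20 and 2.14 FPKM at 7 dpi, and 2.06 and 3.15 FPKM at 21 dpi. The glycine receptor genes had the highest family median at 7 dpi, at 0.33, or 0.074 relative to the neuron list. The 4 genes had a median of -0.57 at 21 dpi, or -0.15 relative to all genes.

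Excitatory and inhibitory receptor genes had medians of the same sign at each time point, except when set against the neuron list at 7 dpi. At 7 dpi the median log2 ratio was 0.17 for 23 excitatory genes and 0.26 for 18 inhibitory genes, a difference of 0.088. Ratios ran from -0.049 to 0.40 for the excitatory genes and from 0.027 to 0.66 for the inhibitory ones, so the ranges overlapped widely. Past 1.3-fold were 1 excitatory gene, or 4.35%, and 5 inhibitory genes, or 27.8%, all higher in ApoE3. Of all listed genes, 3.78% were, so the excitatory share was near that of all genes. Relative to the neuron list, the medians were -0.085 and 0.0030, so the sign of the excitatory side depends on the scale. The order of the sides cannot change with it, because the same value is subtracted from every gene.
At 21 dpi the medians were -0.54 for 19 excitatory genes and -0.60 for 13 inhibitory genes, or -0.12 and -0.17 relative to all genes. The inhibitory side was thus the lower one, the difference being -0.059. Over the genes listed at both time points the medians were closer, at -0.54 and -0.56, and 2 inhibitory genes were past 1.3-fold relative to all genes, since Gabre and Gabrr2 are not among them. Relative to all genes, 6 excitatory genes were above and 13 below the median, and 2 inhibitory genes were above and 11 below. Past 1.3-fold on that scale were 2 excitatory genes in each direction, and 4 inhibitory genes, all higher in ApoE4. These were 10.5% of the excitatory genes in each direction and 30.8% of the inhibitory ones. Of all listed genes, 7.47% were past it in favor of ApoE3 and 8.07% in favor of ApoE4. Whether either side differs from the other was not tested, because genes of 1 group are not replicates.

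Summed levels depended on which genes were listed. The summed FPKM of excitatory receptor genes was 2109 in ApoE3 and 1875 in ApoE4 at 7 dpi, and that of inhibitory ones 1962 and 1655. The ratio of inhibitory to excitatory sums was 0.930 in ApoE3 and 0.882 in ApoE4. The sums at 21 dpi were 3468 and 4014 for excitatory genes and 1002 and 1495 for inhibitory ones, with ratios of 0.289 and 0.372. Grin1 alone made up 64.9% of the excitatory sum in ApoE3 and 56.8% in ApoE4 at 21 dpi, and had no value at 7 dpi. Glrb alone made up 46.1% of the inhibitory sum in ApoE3 and 45.2% in ApoE4 at 7 dpi, and 84.7% and 83.2% at 21 dpi.
Over the 28 genes listed at both time points, 17 excitatory and 11 inhibitory, the ratio was 0.888 in ApoE3 and 0.831 in ApoE4 at 7 dpi, and 0.815 and 0.851 at 21 dpi. The genotype with the higher ratio was thus ApoE3 at 7 dpi and ApoE4 at 21 dpi. Without the most abundant gene of each side, Glrb and either Gria2 or Grin1, the ratio over all listed genes was 0.715 and 0.684 at 7 dpi, and 0.126 and 0.144 at 21 dpi. The order of the genotypes was the same in all 3 forms of the sum at each time point.

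**Figure D3:**
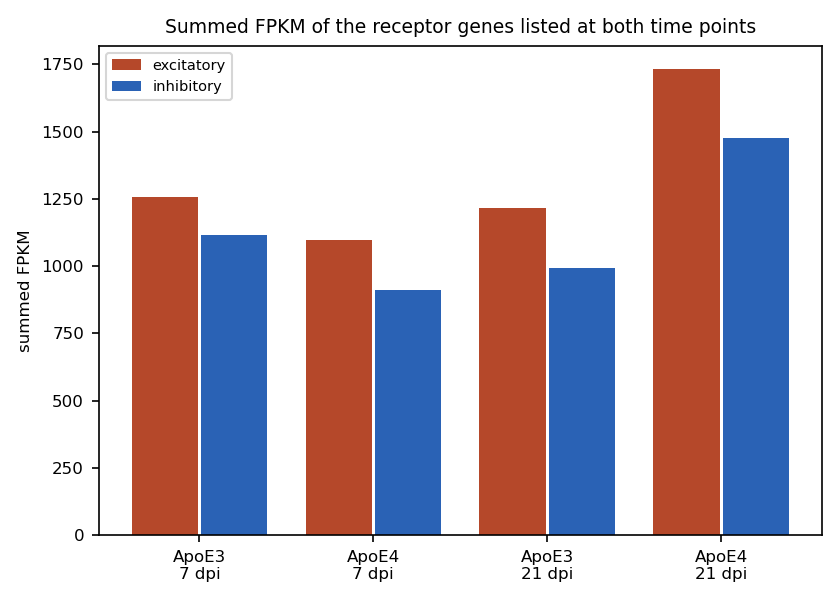
Summed FPKM (y axis, from 0) of the 17 excitatory (red) and 11 inhibitory (blue) receptor genes listed at both time points, for each of the 4 groups, with 1 value per group and no error. The excitatory bar is the higher one in every group, and the ratio of inhibitory to excitatory sums is 0.888, 0.831, 0.815 and 0.851 from left to right.

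The 28 genes listed at both time points could be followed one by one. After centering, 20 were above 0 at 7 dpi and below 0 at 21 dpi, 7 were above 0 at both, 1 was below 0 at both and 0 went the opposite way. The 1 gene was Grin3b, and among the 7 were Grid1, Gabbr2, Grm4, Grik2, Grin2c and Gabrg3. How genes outside the receptor set divide among these patterns was not computed. Whether 20 of 28 is unusual beside other genes therefore cannot be told. Of the 28, 27 were above 0 at 7 dpi and 21 were below 0 at 21 dpi. The count of 20 follows almost wholly from these counts and shows no link between the time points. Across the 28 receptor genes the ratios at both time points gave a Pearson r of 0.00018 and a Spearman rho of -0.11. This is a description across genes, which share the same groups and are not independent replicates. The genes with the highest ratios at 7 dpi thus took both high and low places at 21 dpi, with Grid1 and Gabbr2 toward one end and Glra1 toward the other.

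**Figure D4:**
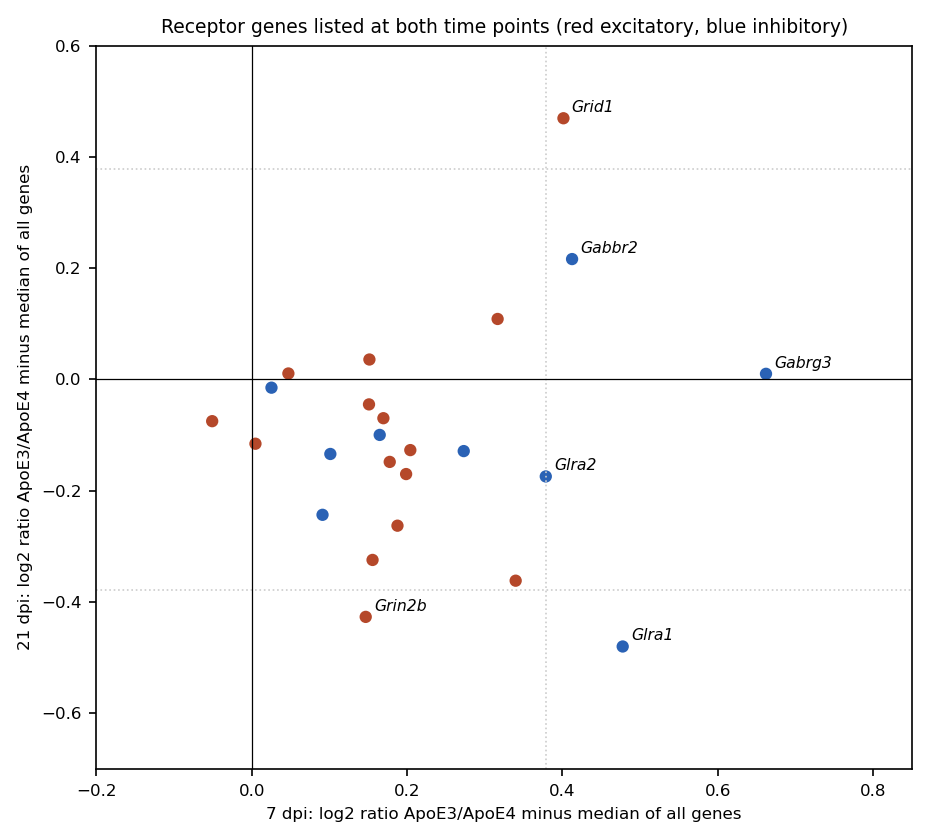
Log2 ratio of ApoE3 to ApoE4, less the all-gene median, at 7 dpi (x axis) and 21 dpi (y axis) for 24 of the receptor genes listed at both, 1 point per gene, excitatory in red and inhibitory in blue. Dotted lines mark 1.3-fold and genes past it are named, with Glra1 at the lower right and Grid1 at the upper right.

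Genes that act with the receptors were set beside them. Of 13 genes for auxiliary subunits of glutamate receptors, such as Cacng7, all were listed at 7 dpi, with a median of 0.22 and 1 past 1.3-fold higher in ApoE3. Cacng7, which traffics AMPA receptors and was the most abundant, had 204 FPKM in ApoE3 and 207 FPKM in ApoE4. At 21 dpi, 12 were listed, with a centered median of -0.057. Of 15 genes for the scaffold of glutamatergic synapses, all were listed at 7 dpi, with a median of 0.063 and 1 past 1.3-fold higher in ApoE3, and 12 at 21 dpi, with a centered median of 0.068. Dlg4, which encodes the main scaffold protein of these synapses, had 400.2 FPKM in ApoE3 and 394 FPKM in ApoE4 at 7 dpi, and 777 and 958 FPKM at 21 dpi.
For the scaffold of inhibitory synapses, the median at 7 dpi was close to 0. Of 9 genes, 7 were listed, with a median of -0.026 and none past 1.3-fold. Gphn, which encodes gephyrin, had 264 FPKM in ApoE3 and 269 FPKM in ApoE4 at 7 dpi, and 429.9 and 451 FPKM at 21 dpi. The 5 genes listed at 21 dpi had a median of 0.039 on the scale of all genes, with 4 above and 1 below.
Genes for the synthesis and transport of the transmitters had medians near those of the receptors at 7 dpi. Of 9 genes for GABA and glycine, all were listed, with a median of 0.20 and 2 past 1.3-fold higher in ApoE3. Slc6a9, which encodes a glycine transporter of glia, was the most abundant, with 305 FPKM in ApoE3 and 286 FPKM in ApoE4. At 21 dpi their median was -0.041 relative to all genes. Of 8 genes for glutamate, 6 were listed at 7 dpi, with a median of 0.17 and none past 1.3-fold, and 6 at 21 dpi, with a centered median of -0.0057. Slc1a2, the main glutamate transporter of astrocytes, had 1712 and 1565 FPKM at 7 dpi, and 1057 and 1802 FPKM at 21 dpi. Of 4 genes for the transport of chloride, which sets the sign of inhibition, 3 were listed at 7 dpi, with a median of 0.12, and 2 at 21 dpi, with a centered median of -0.16. Slc12a5, which extrudes chloride from neurons, had 198 and 181 FPKM at 7 dpi, and 426 and 576 FPKM at 21 dpi.

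Markers of the cells in the segment were set beside the receptors, and the lists took different directions at 7 dpi. The neuron list had a summed level of 11509 FPKM in ApoE3 and 9138 FPKM in ApoE4 at 7 dpi, and of 13500.1 and 20124 FPKM at 21 dpi, where 12 of 16 genes were listed. Map2 was its most abundant gene at 7 dpi and Snap25 at 21 dpi, with 5336 FPKM in ApoE3 and 7812 FPKM in ApoE4. The neuron sums at 7 and 21 dpi cover different genes, since Rbfox3 and Vsnl1 have no value at 21 dpi. The median of the list at 21 dpi was -0.42, the same as that of all genes, with 6 genes above and 6 below. The receptor genes thus had a median below that of the neuron list at both time points, the difference being -0.074 at 7 dpi and -0.13 at 21 dpi. Of 6 motor neuron markers, 5 were listed at 7 dpi, with a median of 0.31, and 4 at 21 dpi, with a centered median of -0.20. Their summed level was 177 FPKM in ApoE3 and 151 FPKM in ApoE4 at 7 dpi, and 40.8 and 71.1 FPKM at 21 dpi, with Prph as the most abundant gene at 7 dpi and Slc18a3 at 21 dpi. The sums at 7 and 21 dpi cover different genes, since Prph and Slc5a7 have no value at 21 dpi. Isl1, against the median of the list, had a log2 ratio of 1.05 there.
The medians of the glial lists at 7 dpi lay on both sides of 0. Astrocyte markers, 7 of 8 listed, had a median of 0.0010 at 7 dpi, and all 8 were listed at 21 dpi, with a centered median of -0.24. Gfap, their most abundant gene, had 12395 FPKM in ApoE3 and 12386 FPKM in ApoE4 at 7 dpi, and 8201 and 15313 FPKM at 21 dpi. Oligodendrocyte markers, 5 of 8 listed at 7 dpi and 6 at 21 dpi, had medians of 0.11 and of -0.11 relative to all genes. Markers of their precursors, 6 of 6 and 5 of 6 listed, had medians of -0.23 and of -0.051 relative to all genes. Markers of microglia and macrophages, 6 of 8 and 5 of 8 listed, had medians of -0.13 and of -0.52 relative to all genes. At 7 dpi, 2 of the listed markers had a ratio above 0 and 4 below. Their sums were 6486 FPKM in ApoE3 and 8433 FPKM in ApoE4 at 7 dpi, of which Lyz2 had 4522 and 6076 FPKM. At 21 dpi the sums were 509 and 962 FPKM, but they cover different genes, since Cd68 has no value there. The part of neuron or glial content in the receptor values was not tested.

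**Figure D5:**
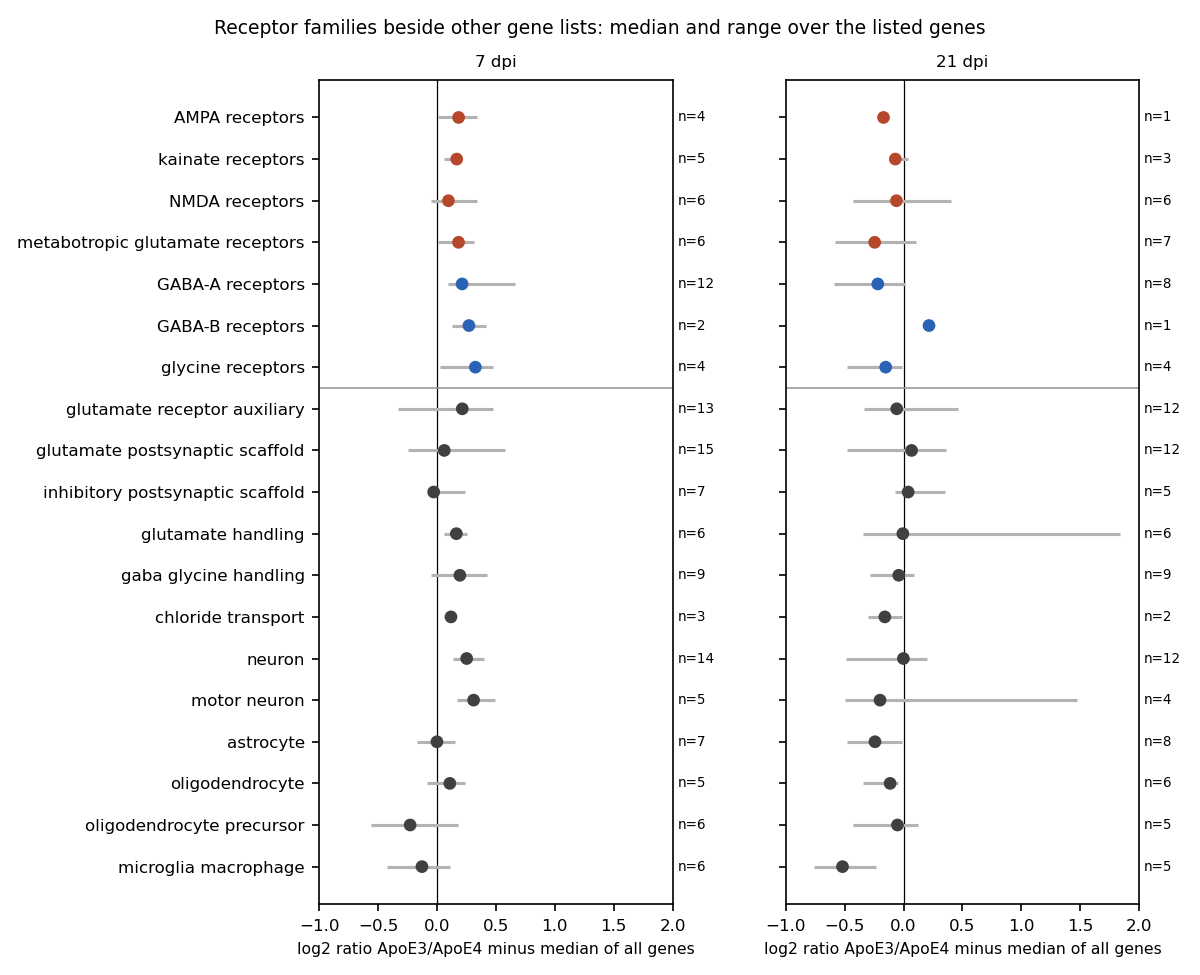
Median log2 ratio of ApoE3 to ApoE4, less the all-gene median (points, x axis) and the range over the listed genes (lines) at 7 dpi (left) and 21 dpi (right), for 7 of the 8 families of excitatory (red) and inhibitory (blue) receptor genes and for lists of related genes and cell types (gray), with n the number of listed genes. All 7 families shown lie above 0 at 7 dpi (relative to the neuron list, GABA-B and glycine do among these 7), and at 21 dpi 6 of the 7 lie below it, GABA-B being above. The family not shown is that of the delta receptors, whose median lay above 0 at both time points, also relative to the neuron list.

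The segments at 21 dpi also differed in markers of sensory ganglia, Schwann cells and skeletal muscle. Of 10 sensory ganglion markers, 9 were listed, with a median log2 ratio of 2.32, and 8 were past 1.3-fold higher in ApoE3. Mrgprd and Trpv1, which mark nociceptors, were at 0 in ApoE4 and at 1.80 and 1.61 FPKM in ApoE3. The summed level of the list was 831 FPKM in ApoE3 and 840.4 FPKM in ApoE4, most of it from Calca, with 702 and 829.5 FPKM, a gene that motor neurons make too. Of 8 Schwann cell markers, 7 were listed, with a median of 1.64. A ratio above 0 was found for 6 of them, and Sox10, at -0.23, was the exception. Ncmap, a gene of myelinating Schwann cells, had 122 FPKM in ApoE3 and 35.7 FPKM in ApoE4.
Of 8 skeletal muscle markers, 7 were listed at 21 dpi, with a median of -4.27 and a sum of 33.6 FPKM in ApoE3 and 713 FPKM in ApoE4. Tnnt3, the most abundant, had 22.5 and 515 FPKM, and Myh4 was at 0 in ApoE3. At 7 dpi, 1 of the 10 sensory ganglion markers was listed, at 0.48, the 5 listed Schwann cell markers had a median of -0.094 and the 6 listed muscle markers one of 0.31. Sensory neurons also use receptors described here, and the part of ganglion, nerve or muscle tissue in the receptor values at 21 dpi was not tested. Slc17a7, a vesicular glutamate transporter gene named after its value was seen, had 3.06 FPKM in ApoE3 and 0.519 FPKM in ApoE4 at 21 dpi, and was the only gene of the lists for transmitter synthesis and transport past 1.3-fold higher in ApoE3 there.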

How the data were processed

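RNA of lesion segments was sequenced by the authors, who reduced all libraries to an equal number of reads and used STAR 2.5.4b, Bowtie2, SAMtools 0.1.7 and Cuffdiff 1.3.0. The sources differ on Bowtie2, with 2.1.10 in the submitters' processing notes and 2.1.0 in the study's methods, which name Cufflinks 1.3.0. The genome build is not given in the sources used here. The authors deposited FPKM plus 1, 1 value per gene and group, and 1 was subtracted here. Their fold changes, p-values, q-values and list of differentially expressed genes were not used. Value columns that could not be assigned to a group numbered 0.
Log2 ratios used a pseudocount of 1 and a minimum of 1.3-fold, with no test. Values were kept for 3 genes per family by mean FPKM, for each gene past 1.3-fold and for each gene listed at 1 time point, with up to 3 abundant genes of other lists, but single values of some genes are not reported here. Receptors and the 15 gene lists were chosen with earlier results of these data known. Of 14718 symbols, 14439 matched the reference names. Sequences and gene order came from RefSeq (GRCm38.p6). Python 3.11.15, numpy 2.4.6, pandas 2.3.3 and matplotlib 3.10.9 were used, and the counting was tested on simulated data. Alternatives were other pseudocounts, a minimum mean FPKM, centering, minimum folds, the opposite reading of genotypes and other sums.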

Additional observations from a re-analysis of the deposited data

Results flagged for a closer look

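After centering on the median of all genes, 20 of the 28 receptor genes listed at both time points took opposite directions at 7 and 21 dpi. The share of all genes that did so was not computed, so this count has no background to be read against. It follows almost wholly from 27 of the 28 being above 0 at 7 dpi and 21 being below 0 at 21 dpi. Relative to the neuron list, the median of the listed receptor genes was below 0 at both time points. On log2 ratios relative to the median of all genes, the value at 7 dpi minus that at 21 dpi was 0.957 for Glra1, which was past 1.3-fold in opposite directions on that scale but not at 7 dpi relative to the neuron list. The same difference between the medians was 0.309 for all receptor genes, 0.283 for the excitatory and 0.429 for the inhibitory ones. Relative to the neuron list, the medians at 7 and 21 dpi lay closer together, at -0.074 and -0.13 for all receptor genes. They were -0.085 and -0.11 for the excitatory and 0.0030 and -0.17 for the inhibitory ones. The difference between the time points was not tested, for want of replicate values, and the medians at 7 and 21 dpi do not cover the same genes.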

How the results depend on the processing

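Pseudocounts of 0.1 and 0.01 left the medians of all, excitatory and inhibitory receptor genes and the counts past 1.3-fold within 1.5 times their values. The medians of single families were not recomputed. A minimum mean FPKM of 1 could change none of these, because every listed receptor gene averaged more than that. The ratio of Grm2 at 21 dpi moved from -0.67 to -1.02 and -1.08 with these pseudocounts. Subtracting the median of the neuron list at 7 dpi gave medians of -0.074 for all, -0.085 for excitatory and 0.0030 for inhibitory receptor genes, with 1 gene past 1.3-fold in ApoE3. At 21 dpi the medians in that order were -0.13, -0.12 and -0.17 after subtracting the median of all genes, -0.13, -0.11 and -0.17 with the neuron list, and -0.14, -0.13 and -0.18 with both groups scaled to the same summed FPKM, which was chosen after seeing the data. The counts past 1.3-fold were then 2 in ApoE3 and 6 in ApoE4 with either subtraction, and 2 and 7 with the scaling. Some ratios turned from negative to positive at 21 dpi with the median of all genes or of the neuron list. Among them were Grin1 (0.40 and 0.41), Gabbr2 (0.22 and 0.22) and Grm4 (0.11 and 0.11). Others were Gabrg3 (0.010 and 0.011), Grik2 (0.036 and 0.037) and Grin2c (0.011 and 0.012), which ended close to 0. The subtraction itself makes these shifts.
The opposite reading of genotypes gave medians of -0.18, -0.17 and -0.26 at 7 dpi and of 0.55, 0.54 and 0.60 at 21 dpi, with 0 genes in ApoE3 and 6 in ApoE4 at 7 dpi, and 28 and 0 at 21 dpi. A minimum of 1.5-fold left 1 gene higher in ApoE3 at 7 dpi and 14 higher in ApoE4 at 21 dpi, and 2-fold left 0 and 2. These counts are not centered, and the share of all listed genes past these folds was not computed. At 1.3-fold, 58.9% of all listed genes were higher in ApoE4 at 21 dpi. The ratio of inhibitory to excitatory sums at 21 dpi was 0.815 in ApoE3 and 0.851 in ApoE4 over genes listed at both time points, and 0.126 and 0.144 without the most abundant gene of each side. No paired analysis was possible because each group has 1 value per gene. The depth behind each gene is unknown, which limits the genes with few FPKM most.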
